A study of Felis catus with 2 samples.

Results

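The cytosolic ribosomal protein genes are the genes for the protein parts of the ribosome outside the mitochondria. Their members were taken by gene symbol alone, as the names that begin with RPL or RPS and a number, with RPSA and RPLP0 to RPLP2, on rows of the deposited table that carry a single name. Kinases of the RPS6K family were left out. The rule found 64 rows with 62 different names among 32065 loci, and for RPS16 and RPL12, each on 2 rows, the row with the higher mean was used. Of the 62 names, 24 are small subunit proteins, 33 are large subunit proteins and 5 are paralogs with a name of the same form (RPL3L, RPL7L1, RPL10L, RPL22L1 and RPS27L). The rule thus covers 57 of 79 symbols of the subunit proteins, and the other 22 symbols were not analysed under it.

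Polyadenylated RNA was profiled in 2 libraries of the iridocorneal angle, the corner between iris and cornea through which aqueous humour leaves the eye. The affected library came from a cat with feline primary congenital glaucoma (PCG), a recessive disease that maps to LTBP2 in the colony studied, and the normal library from a healthy cat not related to it. They are called the PCG cat and the normal cat, and the labels give no LTBP2 genotype for either. Both cats were 2 months old, no treatment is given for either, and the dissected piece also held trabecular meshwork, ciliary body and sclera. With 1 library per condition the values describe these 2 libraries, there is no replicate error, and no p-value was calculated. Values are FPKM, the number of sequenced fragments per kilobase of exon, scaled to the depth of the library, so that levels of different genes are compared per length.

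The ribosome joins amino acids into protein. Its small subunit reads the messenger RNA and its large subunit forms the peptide bond, and each ribosomal protein is built into its subunit in a fixed copy number. The messengers of ribosomal proteins begin with a run of pyrimidines, the terminal oligopyrimidine (TOP) start, through which mTOR signalling controls the translation of all of them together. Because every growing cell needs them, these genes are highly expressed in nearly all tissues. They have also left many processed copies in mammalian genomes, which resemble the messenger and mostly lack introns, so that a name given by sequence likeness can land on a copy.

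Rows at the place of the functional gene were therefore told from other rows by their neighbours. For each member, the 5 named genes on either side in felCat5 were compared with the 5 on either side of the same symbol in the RefSeq annotation of a later cat assembly, F.catus_Fca126_mat1.0. For 44 members between 4 and 9 of the neighbours were shared, for 17 members none was shared, and RPL36A had no entry under that symbol. The rows with no shared neighbour and those with at least 4 stood mostly at different levels. Of the 44 members with shared neighbours 41 averaged at least 100 FPKM, and their median was 1038 FPKM in the normal cat and 986.7 FPKM in the PCG cat. Of the 17 without shared neighbours 2 reached that level and 8 were listed at 0 in both libraries, and the median was 0.069 FPKM in the normal cat and 0 in the PCG cat. Loci shorter than 1000 bases made up 9 of these 17 and 2 of the 44. RPL6, for example, is a row of 705 bases at chrB4:38868573-38869277, and RPL15 a row of 609 bases at chrD1:54029592-54030200, and both were listed at 0 in both libraries. These proteins are needed in every cell, so such a row gives no level for the gene of that name, and a listing at 0 is not a sign that the gene is silent.

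**Figure D1:**
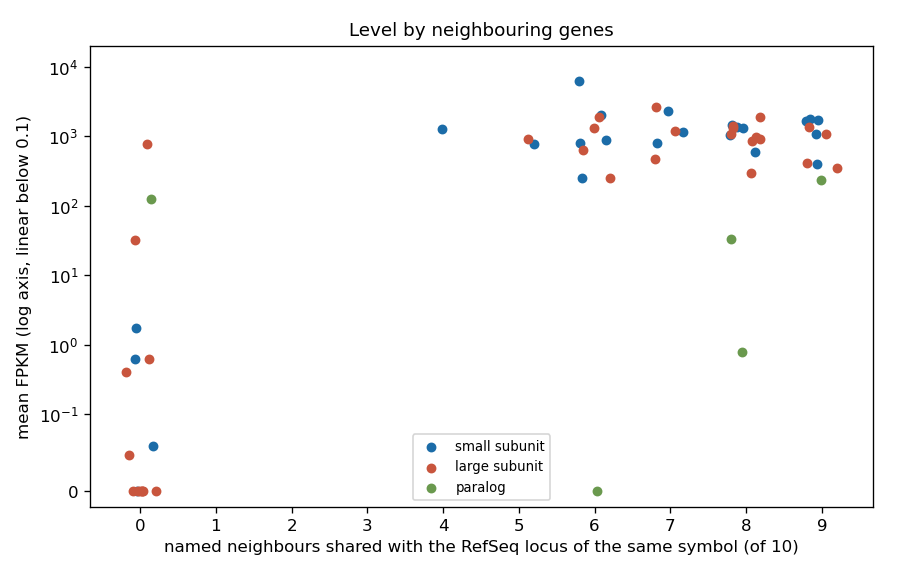
Mean FPKM of the libraries (vertical, log axis that is linear below 0.1) for each of the 61 members with a RefSeq symbol, against the number of named neighbouring genes shared with RefSeq, out of 10. Points are genes coloured by subunit and shifted sideways to lessen overlap; 41 of the 44 genes with shared neighbours stand at or above 100 FPKM, against 2 of the 17 without.

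Among the 62 members, 47 reached 1 FPKM in at least 1 library and 15 did not. The members that passed were 22 small subunit genes, 22 large subunit genes and 3 paralogs. Of the 15, 10 were listed at 0 in both libraries (RPL6, RPL10L, RPL15, RPL19, RPL27, RPL29, RPL35, RPL36A, RPLP2 and RPS25), and RPLP1 was listed at 0 in the PCG cat and at 0.094 FPKM in the normal cat. The remaining 4 were RPL3L, RPL12, RPL18 and RPS6, none of them above 0.831 FPKM.

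The 43 members averaging at least 100 FPKM spanned a 49.8-fold range of levels, and the subunit genes among them, without the paralogs, a 25.3-fold range. RPS29, a zinc-binding protein of the small subunit head, stood first in both libraries. It was listed at 6304 FPKM in the normal cat and at 6276 FPKM in the PCG cat, the 8th highest value of all loci in each. Its row at chrB3:98899977-98900394 is 418 bases long and shares 6 neighbours with RefSeq. RPL17, near the exit of the peptide tunnel, came next with 2397 FPKM in the normal cat and 2919 FPKM in the PCG cat. Among the 100 loci with the highest values, 26 in the normal cat and 22 in the PCG cat were members. The order of the members was nearly the same in both libraries, with a Spearman rho of 0.97 over the 43 genes, which share their library and are not independent. For the 787 other loci that averaged at least 100 FPKM it was 0.53. Their medians were 179 FPKM in the normal cat and 201 FPKM in the PCG cat, beside 1068 and 997 FPKM for the 43 genes. The groups were not matched in level or range, so these values of rho are not directly comparable.

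**Figure D2:**
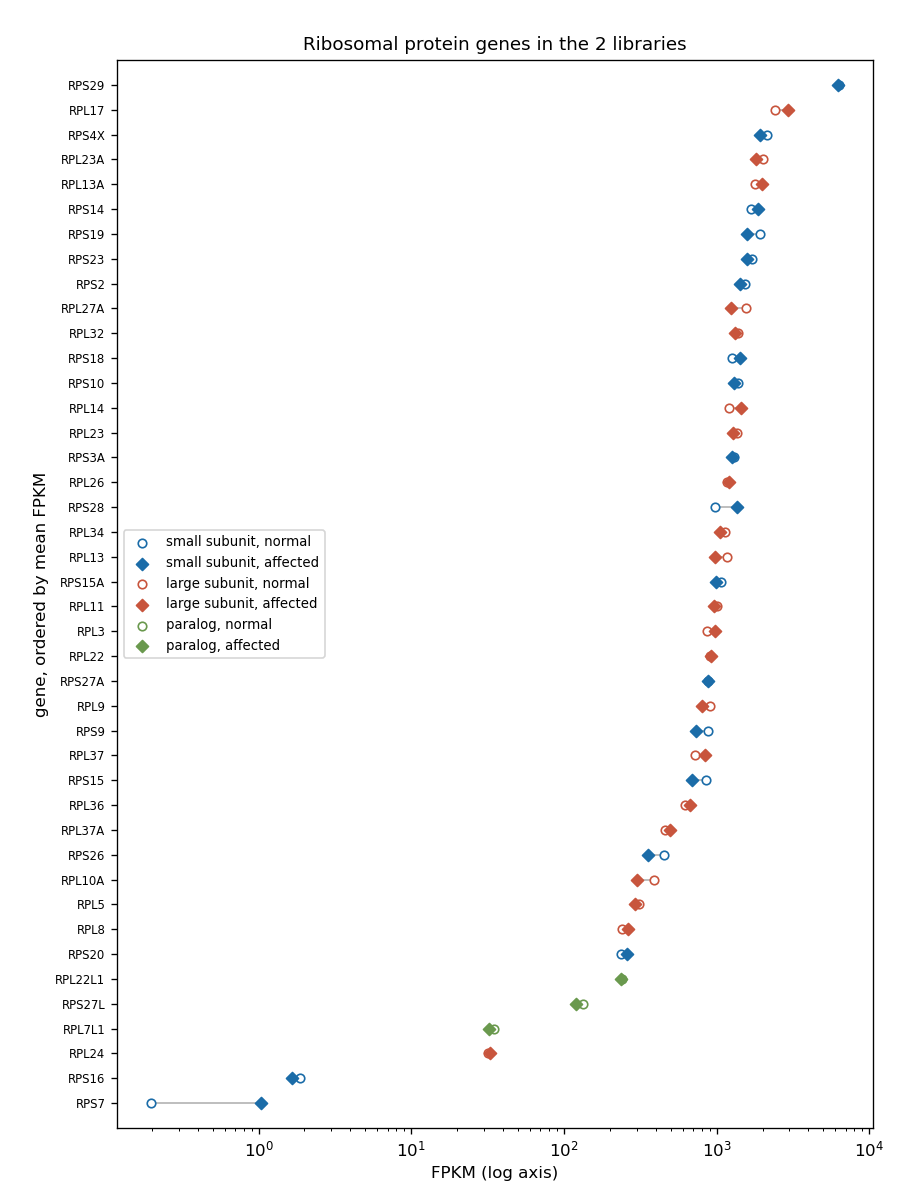
FPKM (horizontal, log axis) of 42 of the 47 ribosomal protein genes with at least 1 FPKM, in order of their mean, with open circles for the normal and filled diamonds for the affected library, joined by a grey line. The pairs lie close together from RPS29 at the top down to RPL24 near 32 FPKM, and RPS7 at the bottom has the longest line.

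In the small subunit, RPS4X, the X-linked copy of a protein on the body of the subunit, was listed at 2152 FPKM in the normal cat and 1921 FPKM in the PCG cat. RPS14, lost in the 5q- form of human myelodysplasia, had 1675 FPKM in the normal cat and 1879 FPKM in the PCG cat. The affected library was thus higher for RPS14 and lower for RPS4X, each time by less than 1.25-fold. RPS19, the gene most often mutated in Diamond-Blackfan anaemia, a human failure of red cell production, was listed at 1917 FPKM in the normal cat and 1589 FPKM in the PCG cat. RPS10 had 1387 and 1295 FPKM, and RPS26, at the exit of the messenger channel, 449 and 356 FPKM. RPS2 and RPS3A, at the entry and the exit of the messenger channel, had 1531 and 1303 FPKM in the normal cat and 1418 and 1269 FPKM in the PCG cat. RPS27A, which is made as a fusion with ubiquitin, was nearly level with 883 FPKM in the normal cat and 878 FPKM in the PCG cat. RPS20 was the lowest small subunit gene of this group, with 237 FPKM in the normal cat and 260.0 FPKM in the PCG cat.

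Of the 20 small subunit genes averaging at least 100 FPKM, 6 were higher and 14 lower in the PCG cat, beside 453 higher and 334 lower among the 787 other loci at that level. The largest difference upward was that of RPS28, a small protein of the subunit head, at chrA2:5551477-5559392. It was listed at 970.8 FPKM in the normal cat and 1361 FPKM in the PCG cat, a ratio of 1.40, and it shares its span with a locus under an Ensembl identifier. Among the lowest ratios was that of RPS26, 0.792. RPS15 had 858 FPKM in the normal cat and 686 FPKM in the PCG cat. RPS18, RPS9, RPS15A and RPS23 had ratios of 1.13, 0.843, 0.934 and 0.920.

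In the large subunit, 10 of the 21 genes at that level were higher and 11 lower in the PCG cat. RPL23A, a docking point for the signal recognition particle at the tunnel exit, was listed at 2014 FPKM in the normal cat and 1811 FPKM in the PCG cat. RPL13A, also known from a complex that represses translation after interferon-gamma, had 1783 FPKM in the normal cat and 1976 FPKM in the PCG cat. RPL3, near the peptidyl transferase centre, had 872 FPKM in the normal cat and 974 FPKM in the PCG cat. RPL5 and RPL11 bind the 5S ribosomal RNA and, when free, the p53 regulator MDM2. RPL11 had 1009 FPKM in the normal cat and 961 FPKM in the PCG cat, and RPL5 309 and 290.3 FPKM, so the ratios of these partners were 0.953 and 0.938.

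The gene with the lowest ratio among all members at this level was RPL10A, at chrB2:36774535-36778584. It was listed at 391 FPKM in the normal cat and 300.2 FPKM in the PCG cat, a ratio of 0.768. RPL27A had 1550.2 FPKM in the normal cat and 1242 FPKM in the PCG cat, and RPL13 had 1178 and 977 FPKM. The highest ratios in the large subunit were 1.22 for RPL17 and 1.19 for RPL14, which had 1214 FPKM in the normal cat and 1445 FPKM in the PCG cat. RPL8 at the peptidyl transferase centre was the lowest of the subunit at this level, with 241 FPKM in the normal cat and 262 FPKM in the PCG cat. RPL9, RPL22, RPL23, RPL26, RPL32, RPL34, RPL36 and RPL37A had ratios between 0.889 and 1.08. RPL13A, RPL17, RPL9, RPL36 and RPL5 share their span with other named genes, and so do RPS18, RPS23 and RPS27A among the small subunit genes described. The median log2 ratio, affected over normal with 1 FPKM added to each value, was −0.015 in the 21 large subunit genes and −0.068 in the 20 small subunit genes, and the difference was not tested. The interquartile ranges were 0.23 and 0.30.

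The paralogs stood at separate levels. RPL22L1, the counterpart of RPL22, was listed at 239 FPKM in the normal cat and 238 FPKM in the PCG cat, while RPL22 itself had 905 and 914 FPKM. Both genes were therefore level between the libraries. RPL7L1, a relative of RPL7, had 34.6 FPKM in the normal cat and 32.3 FPKM in the PCG cat. RPL3L, which replaces RPL3 in heart and skeletal muscle, had 0.726 and 0.831 FPKM, and RPL10L, an intronless gene used in the testis, was listed at 0 in both libraries. RPL3L shares 8 and RPL10L 6 neighbours with RefSeq, so these rows are at the place of the gene named. The 0 of RPL10L still may not be a level, since GAPDH was also listed at 0 in both libraries. RPS27L, a relative of RPS27 induced by p53, had 133 FPKM in the normal cat and 120.1 FPKM in the PCG cat, on a row of 500 bases on chromosome F1 that shares no neighbour with RefSeq.

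Another 4 members without shared neighbours were past the minimum. RPL37, with 727 FPKM in the normal cat and 836 FPKM in the PCG cat, is listed with the span of PTGFRN on chromosome C1. RPL24 had 31.6 FPKM in the normal cat and 33.0 FPKM in the PCG cat on a row of 475 bases, and RPS16 1.86 and 1.65 FPKM. RPS7 had the largest ratio of all members, with 0.199 FPKM in the normal cat and 1.04 FPKM in the PCG cat. This 5.22-fold difference lies at a row that shares its span with CNN3 and no neighbour with the RefSeq place of RPS7, and with 1 FPKM added its log2 ratio was 0.77. Whether these rows give the level of the gene of that name is uncertain. They and RPS27L satisfy the naming rule and stay in the counts and medians given for all members. Over the 42 members past the minimum with shared neighbours, the median log2 ratio was −0.054, with 15 higher and 27 lower, and that of the large subunit genes among them was −0.042.

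Between the libraries, none of the 47 members past the minimum was at least 2-fold higher or lower in the PCG cat on the log2(FPKM + 1) scale. The same threshold was passed upward by 8.14% and downward by 8.75% of all 16676 loci with at least 1 FPKM. Of the 787 other loci that averaged at least 100 FPKM, 16% were higher and 7.75% lower. These loci were not matched in level, with a median of 179 FPKM in the normal cat and 201 FPKM in the PCG cat beside 1068 and 997 FPKM for the 43 members, and 8 of them were listed at 0 in 1 library. The part of the level in the small ratios was not tested. At a threshold of 1.5-fold, RPS7 was the 1 member higher and no member was lower, against 17.6% and 18.7% of all loci. Within 1.25-fold lay 42 of the 47 members (89.4%), and 39 of the 43 averaging at least 100 FPKM (90.7%), compared with 39.0% of the other loci at that level and 40.7% of all loci. Of the 4 outside, RPS28 was on the higher side, and RPL10A and RPS26 were among those on the lower. The 43 genes had log2 ratios between −0.38 and 0.49, with an SD of 0.19 and an interquartile range of 0.26. The interquartile range was 0.84 in the 787 other loci, whose members differ in function and tissue, and the gap between these ranges was not tested.

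**Figure D3:**
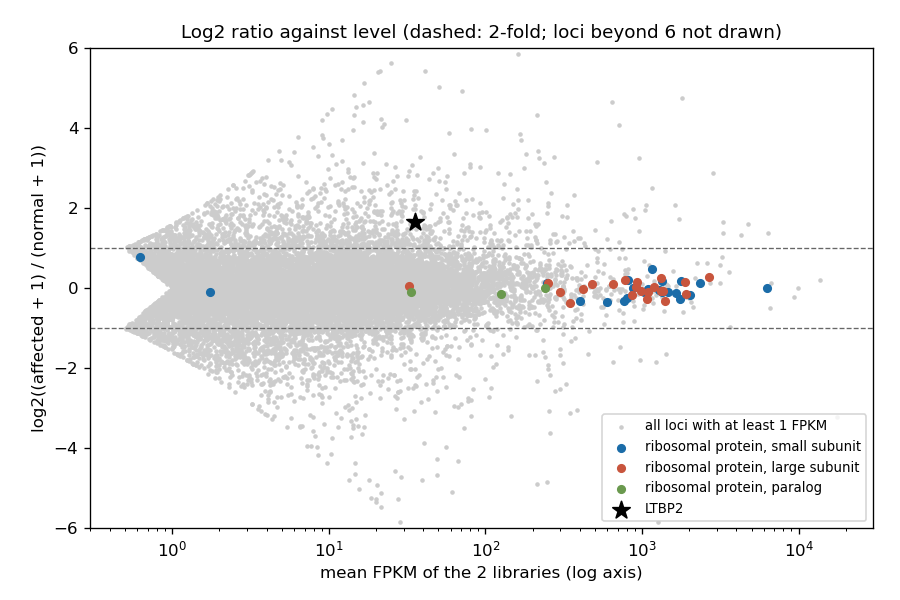
Log2 ratio of affected over normal FPKM, with 1 added to each (vertical), against the mean FPKM of the libraries (horizontal, log axis), for all loci with at least 1 FPKM in grey, ribosomal protein genes by subunit in colour and LTBP2 as a star. Dashed lines mark a 2-fold difference, which no ribosomal protein gene reaches, and loci beyond 6 on the log2 scale are not drawn.

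The median log2 ratio of the 47 members was −0.038, with 18 genes higher and 29 lower in the PCG cat, beside a median of −0.0047 over all 16676 loci, of which 8284 were higher and 8392 lower. The summed FPKM of all members was 51826 in the normal cat and 51399 in the PCG cat, a ratio of 0.992. This was 7.98% of the summed FPKM of the normal and 7.64% of the PCG cat. Small subunit genes held 4.52% and 4.28%, and large subunit genes 3.40% and 3.30%. RPS29 alone made up 12.2% of the members' sum in each library. The rule covers 24 of 32 small and 33 of 47 large subunit symbols, and 20 and 21 of these averaged at least 100 FPKM. Rows listed at 0 add nothing to the sums. The shares therefore do not compare whole subunits and are not the share of all ribosomal protein genes. In both libraries 9 of the 10 loci with the highest values were not members, and without these 9 the share of the members was 9.61% in the normal cat and 8.80% in the PCG cat.

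Low FPKM at unnamed loci step by whole fragments, and 97.2% of 1438 values in the normal cat and 96.5% of 1155 in the PCG cat lay within 0.03 of a whole number of fragments, at a scaled depth of about 71.1 × 1000000 fragments in the normal and 67.5 × 1000000 in the PCG library. The best steps took 176 bases from the length of each locus in the normal cat and 177 in the PCG cat, so that values of the shortest transcripts depend on this correction. On that scale RPS29 had about 108391 fragments in the normal cat and 102014 in the PCG cat, if its row is the transcript. If only 100 bases of RPS27L counted, the lowest of the 43 genes would have 942 and 810 fragments, with counting errors of 3.26% and 3.51%. Fragments from near-identical copies may be shared between rows, and the handling of such reads is not stated in the sources used here. For members under 100 FPKM, such as RPS7 and RPS16, no counting error was estimated, and none of this covers variation between cats.

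Genes that act with the ribosomal proteins were taken from lists. Of 17 listed elongation factors and other genes with TOP messengers, 13 were higher and 4 lower in the PCG cat, with a median log2 ratio of 0.33. EEF1A1, which brings aminoacyl-tRNA to the ribosome, had 6344 FPKM in the normal cat and 6921 FPKM in the PCG cat. EEF2, which moves the ribosome along the messenger, had 700.2 and 901 FPKM. TPT1, one of the most abundant TOP messengers, had 2512 and 3739.8 FPKM, so the genes that share this start with the ribosomal proteins were not all level with them. VIM, which encodes the filament protein vimentin, was lower with 1647 and 1105 FPKM. In this list only EEF1A2, the form of nerve and muscle, was at least 2-fold different, with 5.58 FPKM in the normal cat and 12.3 FPKM in the PCG cat.

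Of 23 initiation factors past the minimum, 14 were higher and 9 lower, with a median log2 ratio of 0.14 and none past 2-fold. EIF1, which helps to choose the start codon, came closest with 339 FPKM in the normal cat and 669 FPKM in the PCG cat. EIF4G2 and EIF4A2 had the lower values in the PCG cat, with 441 and 303 FPKM for EIF4G2 and 215 and 143 FPKM for EIF4A2. EIF3K, a subunit of the EIF3 scaffold, had 188 and 263 FPKM. The initiation list shares 6 genes with the list before it.

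Of 27 assembly factors, which build the subunits in the nucleolus, 15 were higher and 12 lower, with a median log2 ratio of 0.019 and none past 2-fold. NCL, which encodes nucleolin, had 106 FPKM in the normal cat and 152 FPKM in the PCG cat. FBL, the methylase of ribosomal RNA, had 89.3 and 73.4 FPKM, and PES1, needed for the large subunit, 41.8 and 54.4 FPKM. Among assembly genes averaging at least 10 FPKM, RRP9 stood at one end with a log2 ratio of 0.87 and NOP10 at the other with −0.59.

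Regulators of TOP messengers in the mTOR and MYC pathways had a median log2 ratio of 0.11 over 17 genes, with 11 higher and 6 lower. MYC, a transcription factor that drives ribosome production, was level with 5.42 FPKM in the normal cat and 5.40 FPKM in the PCG cat. RPS6KB1 and RPS6KB2 encode the kinases that phosphorylate RPS6. RPS6KB1 had 9.54 FPKM in the normal cat and 10.4 FPKM in the PCG cat, and RPS6KB2 19.4 and 31.2 FPKM. CNBP, which binds TOP messengers, had 132 and 204 FPKM. RHEB, the activator of mTOR, had 129 and 119 FPKM. EIF4EBP1, the repressor of cap-dependent initiation that mTOR inactivates, was the gene at least 2-fold higher, with 29.1 FPKM in the normal cat and 80.0 FPKM in the PCG cat. MYCN was the gene at least 2-fold lower, with 12.2 and 5.60 FPKM.

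**Figure D4:**
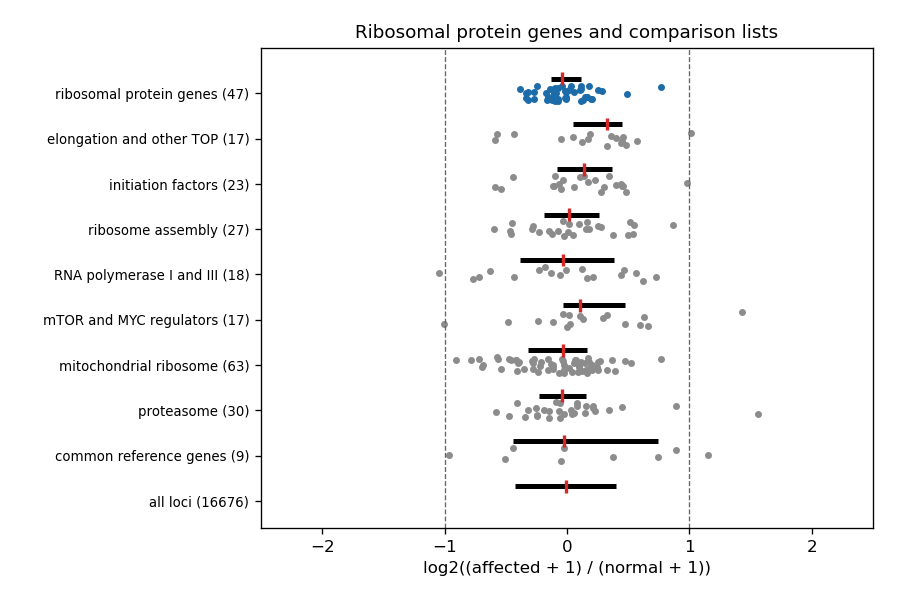
Log2 ratio of affected over normal FPKM, with 1 added to each (horizontal), for the ribosomal protein genes in blue and 8 comparison lists in grey, with the number of genes past the minimum in brackets and 1 point per gene. Black bars run from the lower to the upper quartile, red ticks mark the median, the lowest bar is over all loci without points, and dashed lines mark a 2-fold difference; the bar of the ribosomal protein genes spans 0.25 and that of all loci 0.83.

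The ribosome of the mitochondria has proteins of its own. Its 63 genes past the minimum had a median log2 ratio of −0.034, with 28 higher, 35 lower and none past 2-fold, and an interquartile range of 0.48 beside 0.25 in the 47 cytosolic genes. MRPL18 had 75.9 FPKM in the normal cat and 106 FPKM in the PCG cat, MRPL51 102 and 62.8 FPKM, and MRPL23 71.8 and 80.2 FPKM. These had the highest means of the list, whereas the 47 cytosolic genes had medians of 971 FPKM in the normal cat and 974 FPKM in the PCG cat. The part of the level in the difference of spread was not tested. Among those averaging at least 10 FPKM, log2 ratios ran from −0.90 for MRPL24 to 0.77 for MRPL3.

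Of 16 commonly used reference genes 10 were listed and 9 passed the minimum, with an interquartile range of 1.18 around a median of −0.027, and the difference in spread from the ribosomal protein genes was not tested. HPRT1, of purine salvage, and YWHAZ, an adaptor protein, had log2 ratios of −0.027 and −0.052. B2M, the light chain of the class I histocompatibility complex, had 444 FPKM in the normal cat and 987 FPKM in the PCG cat. PPIA, a prolyl isomerase, had 1025 and 756 FPKM, and TUBB, a tubulin, 262 and 134 FPKM. GAPDH was listed at 0 in both libraries, which again gives no level for a gene of glycolysis that every cell uses.

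Used as a reference set, the ribosomal protein genes put the affected library at 0.974 of the normal library. Division by this factor shifted the median of all loci by 0.033 on the log2 scale, whereas equal sums shifted log2 ratios by −0.052, in the other direction. LTBP2, which encodes a protein of microfibrils and is mutated in PCG cats of this colony, had 16.7 FPKM in the normal cat and 54.8 FPKM in the PCG cat. Its log2 ratio was 1.66 as deposited and 1.69 relative to the ribosomal protein genes, and 2.78% of all loci past the minimum had a log2 ratio at least as high as the deposited value. After division by the factor, 1442 loci were at least 2-fold higher and 1397 lower, in place of 1358 and 1459. The direction with more loci therefore depended on which scale was used.

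The libraries differed in marker genes of other tissues while the ribosomal protein genes stayed within these limits. All 9 markers of corneal and conjunctival epithelium were at least 2-fold lower in the PCG cat, where they summed to 27.1 FPKM beside 609 FPKM in the normal cat. All 11 cell division genes were at least 2-fold lower, with sums of 147 and 23.1 FPKM. Of 7 photoreceptor genes 6 were at least 2-fold higher, with sums of 409 FPKM in the normal cat and 1644 FPKM in the PCG cat, and GNB1 was listed at 0 in both. CRYAA, a lens crystallin, was listed at 0 in the PCG cat and at 22978 FPKM in the normal cat, and this 0 gives no level. Of the other 13 lens genes 8 were at least 2-fold higher and 1 lower, with sums of 36827 FPKM in the normal cat and 54088 FPKM in the PCG cat, whereas with CRYAA the sums were 59805 and 54088 FPKM. Of the labelled tissue's own markers, 7 of 8 trabecular meshwork genes and 8 of 8 ciliary epithelium genes were listed, and all of those listed were past the minimum. In these lists 3 and 4 genes were at least 2-fold higher and 3 and 0 lower. Of 9 genes of macrophages and leukocytes 6 were higher and 3 lower, with LYZ listed at 0 in both. The 4 at least 2-fold higher were CD163, C1QA, C1QB and C1QC, and the 3 lower were PTPRC, AIF1 and CSF1R. Of the red blood cell genes 3 passed the minimum, and all were at least 2-fold lower. HBA had 214 FPKM in the normal cat and 1.64 FPKM in the PCG cat. HBM and AHSP were low, with 4.61 and 3.06 FPKM in the normal cat and 0 and 0.731 FPKM in the PCG cat. SLC4A1, at 0.201 FPKM in the normal cat, was below the minimum and was listed at 0 in the PCG cat. The part of these differences in the ribosomal protein values was not tested, and fewer cells of a type and less RNA per cell cannot be told apart in bulk tissue.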

How the data were processed

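TruSeq libraries of polyadenylated RNA were aligned by the authors with TopHat 2.0.9, guided by Ensembl predictions on felCat5, and Cufflinks 2.1.1 gave FPKM per locus. The deposited FPKM were used as they stand. How libraries were scaled and loci filtered is not given in the sources used here. FPKM are not counts and each condition has 1 library, so no test was made and results are values and log2 ratios with a pseudocount of 1 FPKM, over loci that reached 1 FPKM in 1 or both libraries. Names were matched exactly, and 1 locus that joins RPL26L1 with another name was left out. The members and lists were chosen with earlier results of these data known. Every member could be named, but some are counted in the sums, medians and counts and not reported here by name. From each of 8 comparison lists the 3 genes with the highest mean were named. So were those with the highest and lowest log2 ratio at a mean of at least 10 FPKM. EEF1A1, EEF2, MYC, RPS6KB1, RPS6KB2, LTBP2 and GAPDH were named with them. EEF1A2, MYCN, PSMB9, HPRT1, YWHAZ, HBA, AHSP, CD163, C1QA, C1QB, C1QC, PTPRC, AIF1, CSF1R and genes listed at 0 were added after their values were seen. Marker lists are given by counts and sums. RACK1, FAU, ACTB and NPM1 were not analysed here. Thresholds of 100 FPKM and 1.25-fold and the comparison of neighbours were chosen after the values were seen. Steps were tested on simulated data and used Python 3.11.15, numpy 2.4.6, pandas 2.3.3, scipy 1.17.1 and matplotlib 3.10.9.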

Additional observations from a re-analysis of the deposited data

How the results depend on the processing

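The median log2 ratio of the ribosomal protein genes stayed between −0.079 and −0.0076 under 11 alternatives, the small subunit median between −0.12 and −0.033, the large subunit median between −0.052 and 0.0046, and the interquartile range between 0.19 and 0.27. The alternatives were a pseudocount of 0.1, no filter, a mean of at least 5 FPKM, equal sums of 1000000, a median of all loci at 0, the sum of all rows of a name, removal of loci listed at 0 in exactly 1 library and removal of paralogs, and, chosen after seeing the data, only members with shared neighbours, only those averaging at least 100 FPKM, and removal of RPS29. With a pseudocount of 0.1, and with a 1.5-fold threshold, 1 member, RPS7, was higher in place of 0, and none was lower in any. Without RPS29 the share of summed FPKM was 7.01% in the normal cat and 6.71% in the PCG cat. Fewer loci averaged 5 FPKM or more, and of these 815 were at least 2-fold higher and 691 lower. The direction with more loci thus changed with this filter, as it did after scaling to the ribosomal protein genes. Among all loci past the minimum, 2929 and 3125 passed 1.5-fold. The log2 ratio of LTBP2 lay between 1.63 and 1.71. Of 126 recomputed medians of comparison and marker lists 114 moved by at most 0.1 and 12 by more. The marker medians that moved ranged from −5.56 to −1.03 for red blood cells and from 0.29 to 1.58 for macrophages and leukocytes. For cell division the range was −3.38 to −2.12, and for corneal and conjunctival epithelium −3.41 to −2.72. Medians near 0 crossed it, to −0.028 for assembly factors, 0.0018 for mitochondrial ribosomal proteins, 0.011 for reference genes and, over genes that averaged at least 5 FPKM, 0.13 for RNA polymerase I and III, where the cause was not tested. No paired analysis was possible because there is only 1 cat per condition.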

Other observations

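The proteasome, the complex that degrades proteins, had 30 of 33 listed subunit genes past the minimum, with a median log2 ratio of −0.039, 14 genes higher and 16 lower in the PCG cat. The 3 with the highest means, PSMB7, PSMB1 and PSMA4, had log2 ratios of 0.042, 0.21 and 0.084. PSMB5, a catalytic subunit of the common proteasome, had 105 FPKM in the normal cat and 70.2 FPKM in the PCG cat, a log2 ratio of −0.58, below all others averaging at least 10 FPKM. PSMB8, a catalytic subunit of the form that interferon induces, was above all others of that level with a log2 ratio of 0.89, and PSMB9 of the same form, below that mean, had 2.72 and 9.94 FPKM and was the 1 gene at least 2-fold higher. PSMA7 and PSMA8 were listed at 0 in both libraries.

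RNA polymerases I and III, which transcribe the ribosomal RNAs, had 18 genes of subunits and factors past the minimum, 8 higher and 10 lower in the PCG cat, with a median log2 ratio of −0.034. TAF1D, of the factor that recruits polymerase I, had 31.9 FPKM in the normal cat and 47.8 FPKM in the PCG cat. POLR1D, a subunit of both enzymes, had 75.3 and 48.3 FPKM, and UBTF, which opens ribosomal DNA for polymerase I, 32.2 and 28.3 FPKM. POLR3K was the gene at least 2-fold lower, with 33.4 and 15.7 FPKM. The interquartile range of log2 ratios was 0.76 in this list, 0.38 in the proteasome list, 0.40 in the elongation and TOP list, 0.45 in both the initiation and the assembly lists, 0.50 in the mTOR and MYC list and 0.25 in the ribosomal protein genes, and these differences were not tested.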
